A study of Mus musculus with 6 samples.

Results

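The genes described here encode the receptors for the colony-stimulating factors and the macrophage growth factor CSF1 itself, measured in Kupffer cells, which are macrophages residing in the liver sinusoids. They are Csf1r, Csf2ra, Csf2rb, Csf2rb2, Csf3r and Csf1, chosen as a gene family by their Ensembl identifiers and not by their values. Earlier results of these data were known when they were chosen. All 6 were present among the 27835 rows of the deposited table, each row being 1 Ensembl gene, called a feature below. The arrays, Affymetrix Mouse Gene 2.0 ST, came from 3 C57Bl/6 mice, and from each mouse 1 array held Kupffer cells derived from monocytes (mKC) and 1 held those of embryonic origin (eKC). All 6 samples therefore share the genotype, CX3CR1-CreERT+/+ Stopfl/fl tdTomato, and the treatment that the labels abbreviate as sRBC. CreERT is a Cre recombinase that tamoxifen activates, here driven by the chemokine receptor gene CX3CR1. When and whether the mice received tamoxifen, what the GFP reported and how old the mice were could not be read from the labels used here. Per the labels, both populations were sorted from liver as cells that carried CD45 and a macrophage surface antigen and lacked CD11b. The mKC gate was GFP+ tdTomato- and the eKC gate was GFP- tdTomato+, with 50000 cells per sample and 2 ng of total RNA entering the labelling reaction. Since every mouse had been treated, no comparison below concerns the treatment itself.

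Colony-stimulating factors drive the survival, proliferation and maturation of myeloid cells. CSF1 signals through CSF1R, a receptor tyrosine kinase that also binds IL-34, and tissue macrophages, Kupffer cells included, depend on this receptor for survival. The other receptors belong to the cytokine receptor family and signal through JAK kinases and STAT factors. CSF2RA is the ligand-binding chain for GM-CSF and pairs with the common beta chain CSF2RB, which IL-3 and IL-5 receptors also use. Mice carry a second beta chain, CSF2RB2, that serves IL-3 alone. CSF3R is the receptor for G-CSF, the main growth factor of neutrophils, and is also found on monocytes.

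None of the 6 genes differed between mKC and eKC at the threshold used. All 5 receptor genes were bright on every array, at 9.93 to 13.35 on the log2 intensity scale, and Csf1 lay between 6.01 and 6.41. The mean difference between the populations ran from -0.104 for Csf2rb2 to 0.173 for Csf1 (log2, mKC minus eKC, 3 animals). Of the 6 genes, 0 passed an adjusted p under 0.05 in limma, and 0 had an unadjusted p under 0.05, whereas 506 of 27835 features (1.82%) passed the adjusted threshold and 3269 the unadjusted one. With so few members, a share near this background is not a result about the family. The difference was above 0 for 4 genes and below 0 for 2. Only Csf1r had the same sign in all 3 animals, and only for Csf1r did the groups not overlap, a separation that a further quantile normalization ended. Over all features these patterns were seen in 33% and 17.7%.

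The arrays separated by sorted population, but those of animal 2 stood apart. The first principal component, with 45.2% of the variance, placed the mKC arrays at 19.8 to 24.2 and the eKC arrays at -23 to -20.8. On the second component, with 17.2%, the eKC array of animal 2 scored 25.6, while those of animals 1 and 3 scored -12.9 and -12.4. On the third, with 15.6%, its mKC array scored 24.4, against -10.8 and -13.2 for the other mKC arrays. Values without animal 2 are therefore given beside the results below. The array medians, 5.21 to 5.28, lay close together. Only the 6 genes could be tied to symbols, so the labelled cell type could not be checked against Kupffer cell markers, nor could markers of other liver or blood cells be examined. What carried-over cells contribute to any value was not tested.

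For Csf2ra, Csf2rb2 and Csf3r the sequence just before a RefSeq transcription start holds the purine-rich core GAGGAAG, the kind of element bound by PU.1, a transcription factor of myeloid cells. PU.1 is known to act on the promoters of the human genes CSF2RA and CSF3R. These stretches are shown to orient the reader at the genes whose levels follow. Each is 30 bases long, printed 5′ to 3′ on the strand of the gene, with the core or its reverse complement in capitals.
Csf2ra: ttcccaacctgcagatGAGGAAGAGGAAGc
Csf2rb2: cctctgtgtctgCTTCCTCcagagaagtca
Csf3r: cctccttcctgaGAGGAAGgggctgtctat
They lie at chr19:61228419-61228448 (minus strand), chr15:78305872-78305901 (minus strand) and chr4:126024561-126024590 (plus strand) of the RefSeq annotation of GRCm38.p6. Both strands of the 250 bases before the start were searched in these 3 genes and in Csf1. Csf1r was left out of the search by its chromosome, and Csf2rb had no usable promoter entry. Whether either holds the core is not known. Csf2ra has 2 matches that share a base, with their first bases 14 and 8 bases before the start. Csf3r has 1, from 86 bases before the start. Csf2rb2 has 1 on the opposite strand, at 168 bases before the start. The same stretch of Csf1 has 0. For Csf2ra and Csf3r the RefSeq gene reaches further upstream than the start used here, so these bases may lie inside longer transcripts. Of 32851 mouse promoters of this length, 3486 (10.6%) hold the core on either strand. A match describes the letters only. The arrays do not measure binding.

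Csf1r (ENSMUSG00000024621), which encodes the CSF1 receptor, was bright and even on all arrays. It read 13.26, 13.29 and 13.35 in the mKC of animals 1, 2 and 3, and 13.26, 13.23 and 13.23 in their eKC (log2 intensity). The 3 mKC arrays were above the eKC arrays, but the gap between the groups was only 0.00564. The group levels were 13.3 ± 0.0458 in mKC and 13.24 ± 0.0168 in eKC (SD, n = 3). On each array the value lay above 99.9% of all features, which describes its place on the intensity scale and does not rank transcripts, since probe sets differ in brightness.

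The paired difference of Csf1r was 0.0653 ± 0.0911 (SE, limma), with a 95% interval from -0.156 to 0.286 and an adjusted p of 0.87. As a fold this interval runs from 0.898 to 1.22. Within animals 1, 2 and 3 the difference was 0.00564, 0.0642 and 0.126. Its SD over all 6 arrays, 0.0472, was larger than that of only 2.47% of features. limma raises such a small spread towards that of the other features, so the SE exceeds what these 3 pairs alone would give. The separation of the groups depended on the scaling: after a further quantile normalization the mKC arrays spanned 13.24 to 13.33 and the eKC arrays 13.24 to 13.29, so the groups overlapped, and the difference fell to 0.0147. Without animal 2 it was 0.0659. Among the 50 other features within 0.5 of its mean level, 0 passed the adjusted threshold in limma and 5 had an unadjusted p under 0.05, and the largest difference there was 0.408. The highest value on any array was 14.2. Whether the array scale flattens differences at such brightness was not tested.

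**Figure D1:**
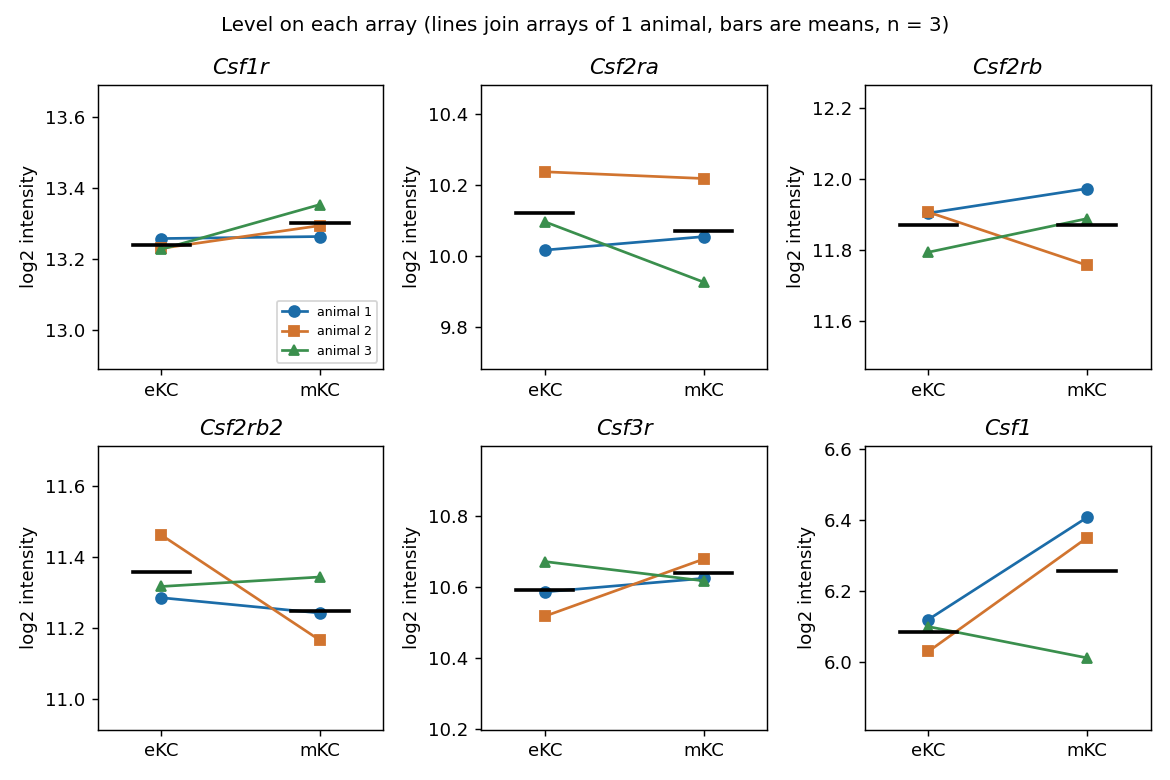
Log2 intensity (y axes, each spanning 0.8) of the 6 genes on the eKC and mKC arrays; lines join the 2 arrays of 1 animal and black bars are group means (n = 3). Csf1r lies between 13.23 and 13.35 on all arrays, and for Csf1 the mKC arrays of animals 1 and 2, at 6.41 and 6.35, stand above the other 4.

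Csf2ra (ENSMUSG00000059326), which encodes the GM-CSF binding chain, varied more between animals than between populations. In mKC it read 10.05, 10.22 and 9.93 in animals 1, 2 and 3, and in eKC 10.02, 10.24 and 10.10. The groups overlapped, and animal 2 was the highest in both. The difference was -0.0503 ± 0.0956 (SE, limma), with a 95% interval from -0.282 to 0.182 and an adjusted p of 0.91. It was 0.0378, -0.0189 and -0.170 within animals 1, 2 and 3, and -0.066 without animal 2. The lower mean of mKC came mostly from animal 3, without which the difference was 0.00945.

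Csf2rb (ENSMUSG00000071713), the common beta chain shared by the GM-CSF, IL-3 and IL-5 receptors, had the smallest mean difference of the 6. In mKC it read 11.97, 11.76 and 11.89 in animals 1, 2 and 3, and in eKC 11.90, 11.91 and 11.79. The mean was 11.87 in both groups, with an SD of 0.109 in mKC and 0.0645 in eKC (n = 3). The difference was 0.00465 ± 0.0992 (SE, limma), with a 95% interval from -0.236 to 0.245 and an adjusted p of 0.99. This near-zero mean covered opposite signs, with 0.069 and 0.0946 in animals 1 and 3 and -0.150 in animal 2. Without animal 2 it was 0.0818 (limma, adjusted p = 0.82).

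Csf2rb2 (ENSMUSG00000071714), the beta chain of the mouse IL-3 receptor, had the lowest difference of the 6. It read 11.24, 11.17 and 11.34 in the mKC of animals 1, 2 and 3, and 11.29, 11.46 and 11.32 in their eKC. The groups overlapped, and animal 2 held both the lowest mKC and the highest eKC value. The difference was -0.104 ± 0.105 (SE, limma), with a 95% interval from -0.359 to 0.150 and an adjusted p of 0.80. Within animals 1, 2 and 3 it was -0.0432, -0.297 and 0.0266. Without animal 2 it was -0.0083, so the lower mean in mKC rested on that animal. Csf2rb and Csf2rb2 are near-identical paralogs and direct neighbours, with 0 genes annotated between them in RefSeq. Whether each probe set also takes signal from the other gene was not tested, so their values are uncertain as measures of the single genes.

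Csf3r (ENSMUSG00000028859), the G-CSF receptor gene, was bright in both populations. Neutrophils are the cells best known for this receptor. Whether carried-over neutrophils contributed to its signal was not tested. In mKC it read 10.62, 10.68 and 10.62 in animals 1, 2 and 3, and in eKC 10.59, 10.52 and 10.67. The mKC arrays were close together, with an SD of 0.0335 against 0.0771 in eKC (n = 3), and overlapped with the eKC arrays. The difference was 0.0482 ± 0.0957 (SE, limma), with a 95% interval from -0.184 to 0.280 and an adjusted p of 0.91. It was 0.0381, 0.161 and -0.0543 within animals 1, 2 and 3. Without animal 2 it was -0.00806, so the sign of the mean was set by that animal. In bulk samples such as these, a change in the number of expressing cells and a change in RNA per cell cannot be told apart.

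Csf1 (ENSMUSG00000014599), the gene of the ligand for CSF1R, was of moderate brightness and showed the largest mean difference of the 6. In the liver CSF1 is known to come largely from cells other than Kupffer cells, such as stellate and endothelial cells. In mKC it read 6.41, 6.35 and 6.01 in animals 1, 2 and 3, and in eKC 6.12, 6.03 and 6.10. The mKC arrays of animals 1 and 2 lay above every eKC array, whereas the mKC array of animal 3 was the lowest of all 6. The group levels were 6.255 ± 0.214 in mKC and 6.082 ± 0.0473 in eKC (SD, n = 3).

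The difference of Csf1 was 0.173 ± 0.116 (SE, limma), or 1.13-fold, with a 95% interval from -0.108 to 0.455 and an adjusted p of 0.67. It was 0.287 and 0.320 within animals 1 and 2 and -0.0881 within animal 3. Without animal 3 it was 0.304 ± 0.124 (limma, adjusted p = 0.53), and without animal 2 it was 0.0997. Its value was above 61.3% to 65.2% of the features of an array. The table holds no detection call, so how much of this signal was above background is not known. Of the 3194 other features within 0.5 of its level, 143 (4.48%) passed the adjusted threshold.

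**Figure D2:**
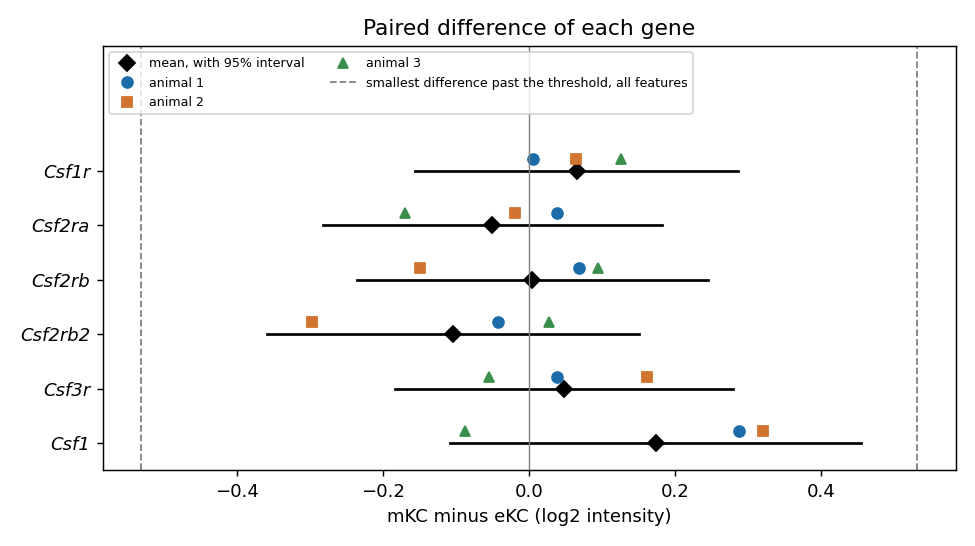
Difference between mKC and eKC (x axis, log2 intensity) for each gene; diamonds are means with 95% intervals from limma (3 animals), coloured symbols are single animals, and dashed lines mark 0.531 on either side of 0, the smallest difference that passed the threshold among all features. All 6 intervals include 0 and end inside the dashed lines.

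The measurements bound the size of the differences. Across the 6 genes the 95% intervals ran from -0.359 at the lowest, for Csf2rb2, to 0.455 at the highest, for Csf1. Each interval holds for its own gene, and none was widened for taking the extremes of 6. As folds of mKC over eKC these bounds are 0.780 and 1.37. The smallest difference that passed the threshold among all 506 called features was 0.531. Given its own SE in this fit, a gene of this family would have needed a difference of 0.541 for Csf1r to 0.688 for Csf1 to pass. The lack of a call therefore does not show equal expression. With an intensity trend and robust estimation the SE was smaller for the 5 receptors, from 0.0368 for Csf1r to 0.0694 for Csf2rb2, and larger for Csf1, at 0.135, and again none of the 6 passed. The intervals assume that intensity follows RNA over the whole range, and RMA can compress differences of dim probe sets.

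Set beside all features, the 6 differences lay between the lowest 5% and the highest 5% of the distribution. The median difference without its sign was 0.0973 over all features, and 5% of features lay below -0.297 and 5% above 0.324. The share of features with a smaller difference, without sign, was 2.71% for Csf2rb, 26.8% for Csf3r, 28% for Csf2ra, 35.8% for Csf1r, 52.8% for Csf2rb2 and 73.1% for Csf1. Among features of like level the same share was 44% for Csf1r and 61.1% for Csf1.

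**Figure D3:**
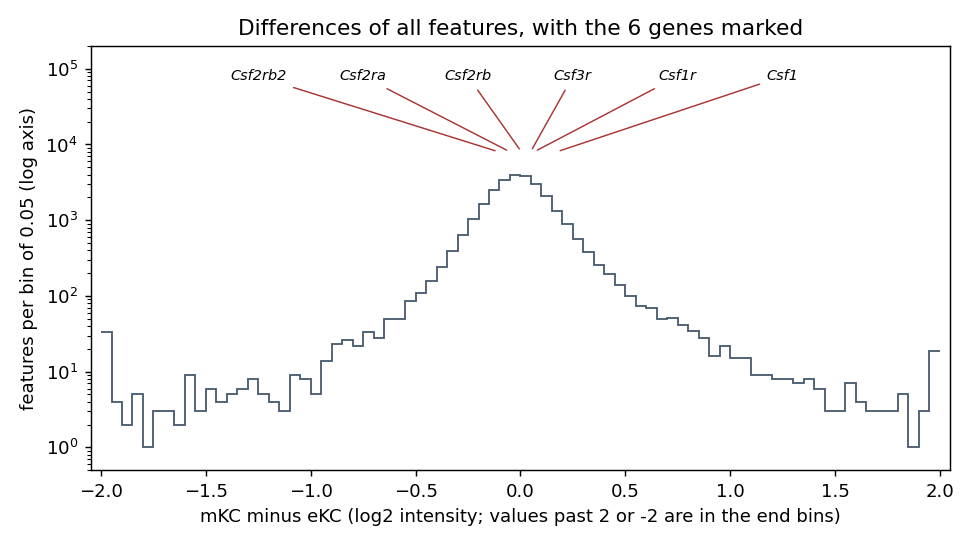
Number of features (y axis, log scale) by the difference between mKC and eKC (x axis, log2, bins of 0.05, all 27835 features, with differences past 2 or -2 gathered in the end bins); red lines point to the differences of the 6 genes. All 6 lie between -0.104 and 0.173. The fullest bin holds 3943 features, and the bin of Csf1, the gene furthest from 0, holds 1322.

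The profile of Csf1, the gene with the largest difference of the family, was set beside those of all other features. With each profile centred on its own mean, ENSMUSG00000088890 and ENSMUSG00000048334 were the features most like it over the 6 arrays, at a root mean square difference of 0.0285 and 0.0342 on the log2 scale. Neither passed the threshold (limma, adjusted p = 0.66 and 0.58). ENSMUSG00000088890 was dim, at a mean level of 3.104, below the array medians of 5.21 to 5.28, and ENSMUSG00000048334 lay at 6.299. In all, 577 of 27835 features lay within 0.1 of the Csf1 profile by this measure. The cut is loose beside the SD of Csf1 itself over the 6 arrays, 0.168. No such count was made for other profiles, and Csf1 did not pass the threshold. The 2 features are therefore only the closest in values, and whether they vary together with Csf1 was not tested.

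**Figure D4:**
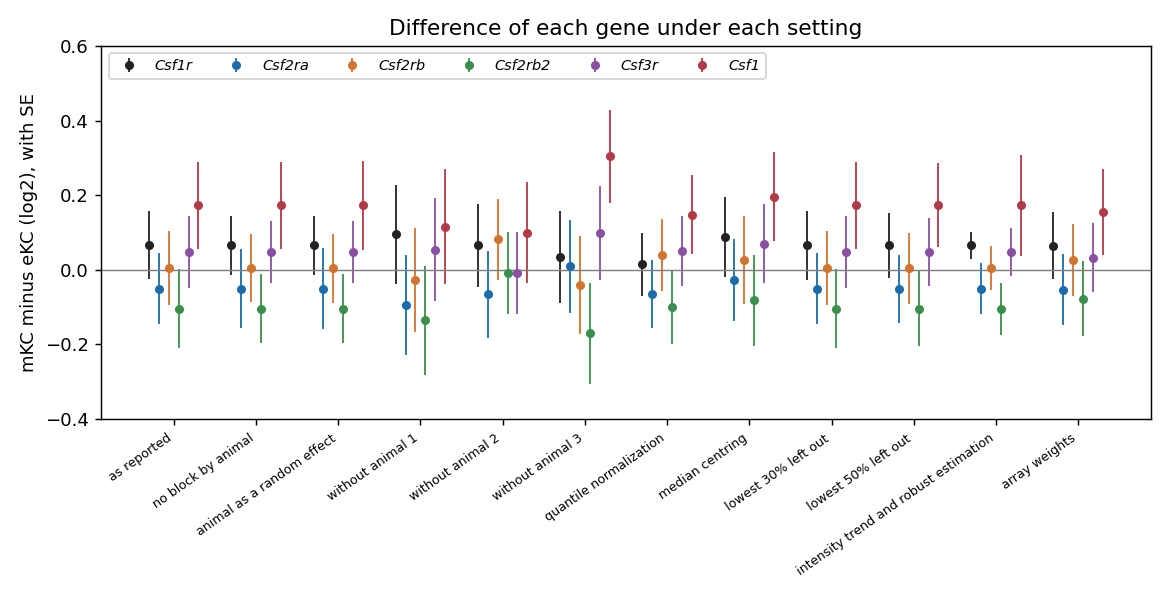
Difference between mKC and eKC (y axis, log2, bars are limma's SE) of the 6 genes under the fit as reported and 11 alternatives (x axis). No value passed the threshold under any setting, and Csf1 reached its highest value, 0.304, without animal 3.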

How the data were processed

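The values are log2 intensities from the authors' deposited table, 1 column per array, made with RMA per the submitters' processing notes (background correction, quantile normalization, probe summary). The log base was taken from the range, 2.09 to 14.2; its software version and probe sets are not given in the sources read. Array counts, not read depth, limit precision. The reference table (49997 genes, 0 with an Ensembl identifier) named 0 rows; symbols of the 6 genes came from the definition of the family. The 15 pathway and marker lists drawn up by symbol could not be used. Members and lists were chosen with earlier results of these data known.

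Using lmFit and eBayes (limma 3.58.1, R 4.3.3), all 27835 features were fitted, as mKC minus eKC with animal as a block, as the series' design pairs samples within mice. Tests were two-sided with Benjamini-Hochberg adjustment over all features and a threshold of 0.05. The fit had 2 residual and 4.21 prior degrees of freedom. Deviations of same-animal arrays from group means correlated at -0.0323, 0.0258 and -0.0188 over features; the pairing rests on the mice. No 2 arrays were copies (26 to 41 identical values). Named were all 6 members and the 2 features most like the member with the largest difference. Tested on simulated data of this comparison (27835 features, 10 runs), the fit recovered 2%, 79.2% and 98.4% of changes of 0.5, 1 and 2 on the log2 scale, with 3.94% false calls. The simulation drew its spread from limma's fitted prior and changed only a small share of the features. Its rates hold for that setting and can differ in the real data. Alternatives were an unpaired fit, a random animal effect, fits on 2 animals, 2 further normalizations, 2 filters on dim features, array weights, a robust fit with an intensity trend, and 2 other thresholds.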

Additional observations from a re-analysis of the deposited data

How the results depend on the processing

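None of the 6 genes passed the threshold in any of 66 tests, each of 1 gene under 1 of 11 alternatives (limma, adjusted p from 0.52 to 0.99), and 62 of the 66 kept the direction of the reported difference. The 4 that reversed all left out 1 animal. Csf2rb was -0.0275 without animal 1 and -0.0403 without animal 3, Csf3r was -0.00806 without animal 2, and Csf2ra was 0.00945 without animal 3. With 1 animal left out in turn, the difference ran from 0.0349 to 0.0951 for Csf1r, -0.0944 to 0.00945 for Csf2ra, -0.0403 to 0.0818 for Csf2rb, -0.17 to -0.0083 for Csf2rb2, -0.00806 to 0.0995 for Csf3r and 0.0997 to 0.304 for Csf1. Without the replicate block, which pairs the arrays by animal, the differences are the same by construction, 0 members passed and Csf1 had an adjusted p of 0.64; 608 features passed in all. Over all features, 506 passed as reported, 171 to 369 with 1 animal left out (252 without animal 1, 171 without animal 3, with 1 residual degree of freedom fewer) and, by construction fewer, 236 with a log2 difference of at least 1 required as well. The alternatives planned for the pathway lists were not run, because no list could be matched to the table. The table holds no signal over background, so none of the 6 could be called detected or not.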

Other observations

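Differences between probe sets of the same array were also computed for all 15 pairs of the 6 genes, and 4 pairs shifted the same way in all 3 animals. With 3 animals an exact permutation test of 1 such shift cannot give a p below 0.25, so these are values only. Among single features, 33% had the same sign in all 3 animals. No such share was computed for pairs of features, and the 15 pairs reuse the same 6 genes. The count of 4 is therefore not a result about the pairs. Csf2rb minus Csf2rb2, the pair of beta chains, was 0.731, 0.592 and 0.545 in the mKC of animals 1, 2 and 3, and 0.619, 0.445 and 0.477 in their eKC. The shift was 0.112, 0.147 and 0.068, with a mean of 0.109 on the log2 scale. It was singled out after its values were seen, and the groups overlapped, since the eKC array of animal 1 was above the mKC arrays of animals 2 and 3.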
